A study of Mus musculus with 6 samples.

Results

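The bone morphogenetic protein (BMP) pathway was followed through 10 genes chosen by symbol: the ligands *Bmp2*, *Bmp4*, *Bmp5* and *Bmp7*, the secreted antagonists *Nog* and *Grem1*, the pseudoreceptor *Bambi*, and the response genes *Id1*, *Id3* and *Smad6*. All 10 were found among the 23420 genes of the deposited table. The question was whether their RNA levels differ between control lungs and lungs whose epithelium lacks *Rptor*, the scaffold of the growth-regulating kinase complex mTORC1. Whole mouse lungs at E11.5dpc (days post coitus) had been pooled by genotype, 3 or 4 to a pool, and there were 3 pools in each group. The control genotype was Raptorf/+; ShhCre/+ and the mutant genotype was Raptorf/f; ShhCre/+. Every lung, controls included, thus carried the Cre recombinase expressed from the *Shh* locus. Control lungs carried 1 floxed (f) *Rptor* allele where mutant lungs carried only floxed alleles. Per the paper, this Cre turns a floxed allele into a null one in lung epithelium, so the control epithelium was heterozygous for *Rptor*. The paper treats lungs with only Cre alleles at *Shh* as lacking *Shh*, so every lung here also carried 1 such *Shh* allele. This Cre acts in the lung epithelium, while RNA was taken from all cells of the lung, so a change in a minority of cells is diluted. In whole lungs, fewer cells of a type and less RNA per cell cannot be told apart.

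BMPs are secreted ligands of the TGF-beta superfamily. They bind pairs of serine/threonine kinase receptors, which phosphorylate SMAD proteins that enter the nucleus with SMAD4 and switch on genes such as the *Id* family and *Smad6*. In the branching lung, *Bmp4* is known from the tips of the distal epithelium and from nearby mesenchyme, *Bmp7* from the epithelium and *Bmp5* from the mesenchyme. Noggin and gremlin bind the ligands outside the cell and keep them from their receptors.

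None of the 10 BMP genes passed the test. Values are normalized counts: the read number of a gene after division by the size factor of its library. The groups were compared by limma on log2(normalized count + 1). With an adjusted p under 0.05 as the threshold, 0 of the 10 genes were called by limma, where 86 of 17168 tested genes (0.501%) were called. Tests of the reads also called 0 of the 10, both by edgeR, which called 79 of 14670 genes (0.539%), and by DESeq2, which called 277 of 19100 (1.45%). At an unadjusted p under 0.05 there were 2 of the 10, *Bmp7* (lower) and *Id3* (higher), against 13.6% of tested genes (6.67% higher and 6.89% lower). The 3 mutant pools did not overlap the 3 control pools in 4 of the 10 genes, *Bmp7* and *Grem1* (lower) and *Bmp5* and *Smad6* (higher), against 20.2% of tested genes (9.77% higher and 10.5% lower). The median log2 fold change of the 10 was 0.07, beside -0.0021 over all tested genes, and the median size of the change regardless of sign was 0.14, beside 0.10. For single genes, an exact permutation test of 3 pools against 3 cannot give a p under 0.1. All p-values rest on the spread between these pools, which limma, edgeR and DESeq2 estimate for a gene partly from other genes.

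The 6 libraries were alike in depth, with 20197642 to 21276090 reads each. Pools of the same group differed by more than counting noise in every pair, with a chi-square of 2.19 to 13.9 per degree of freedom. The highest value was between control pools 2 and 3. *Rptor* itself was at 2126, 2193 and 2279 in control pools against 2023, 2137 and 2148 in mutant pools (limma adjusted p = 0.584). These counts cover the whole gene in all cells of the lung, so the deleted exons in the epithelium were not isolated. The lung markers *Nkx2-1* (1977 to 2686) and *Foxf1* (5105 to 5605) were high in every pool, and the heart muscle gene *Myh6* was at 27.6 to 127. *Xist*, the RNA of the inactive X chromosome, was at 4599, 309 and 12989 in control pools against 41.9, 466 and 161 in mutant pools. The groups overlapped, with control pools 1 and 3 above the rest, and the sex of the pooled embryos is not labelled.

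*Bmp4*, the best-known ligand of the distal lung tip, is at chr14:46383520-46390669 (GRCm38, minus strand). Control pools 1, 2 and 3 gave normalized counts of 1257, 1165 and 1289, and mutant pools 1, 2 and 3 gave 1162, 1111 and 1170. The groups overlapped narrowly, since control pool 2 lay below mutant pool 3. The means were 1237 ± 64.3 (SD, n = 3 pools) and 1148 ± 32.0 (SD, n = 3), and the log2 fold change between them was -0.11 (limma adjusted p = 0.420, standard error 0.05). The 95% interval of this log2 fold change, which is per gene and not corrected for many tests, ran from -0.23 to 0.01. In percent this is a change of -14.7% to 0.952%. The exons of *Bmp4* overlap those of *Gm15217* on the opposite strand, and the strand setting of the counting is not given in the sources used here, so reads of these genes may not have been told apart.

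*Bmp7*, a ligand of the lung epithelium, is at chr2:172868012-172940321 (minus strand). It was at 704, 701 and 726 in control pools against 610, 632 and 594 in mutant pools. All mutant pools lay under all control pools, and the pools of a group were close together. Control lungs averaged 710 ± 13.2 (SD, n = 3) and mutant lungs 612 ± 19.4 (SD, n = 3), a difference of -0.22 on the log2 scale (95% interval -0.34 to -0.09, standard error 0.06). This was the lowest p of the 10 genes, at rank 437 of all tested genes, and adjusted over all of them by limma it was 0.146. Leaving out 1 pool at a time, its log2 fold change stayed between -0.24 and -0.19, with an adjusted p of 0.111 to 0.478.

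*Bmp5*, a ligand of the lung mesenchyme, is at chr9:75775364-75900310 (plus strand). It was at 641, 641 and 565 in control pools against 737, 655 and 675 in mutant pools. The groups did not overlap, with mutant pool 2 just above the highest control pools. Its exons overlap *Gm26903* on the opposite strand, which unlike *Gm15217* is not among the genes of the deposited table. Reads of *Gm26903* may thus be among those of *Bmp5*. The means were 615 ± 44.1 (SD, n = 3) and 689 ± 42.6 (SD, n = 3), a log2 fold change of 0.16 (standard error 0.07, 95% interval -0.00076 to 0.33, limma adjusted p = 0.369). With the log2 *Xist* value as a covariate the log2 fold change was 0.02 (limma adjusted p = 0.954). Over all alternatives other than the scalings to markers, the adjusted p ran from 0.280 to 0.954. The part of embryo sex in the difference was not tested, since sex is not labelled.

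*Bmp2*, a ligand close in sequence to *Bmp4*, is at chr2:133552159-133562885 (plus strand) and was the least abundant of the 4 ligands. Its normalized count was 107, 72.3 and 73.6 in control pools against 120, 78.4 and 112 in mutant pools. The spread within groups was wide, and the groups overlapped because control pool 1 was above mutant pool 2. Mutant minus control, the log2 difference was 0.29 (standard error 0.21, limma adjusted p = 0.581). Its 95% interval, -0.17 to 0.75, includes no change as well as a level 68.3% higher, so a sizeable difference in *Bmp2* was not detectable here.

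The order of *Bmp5* and *Bmp7* differed between the groups. *Bmp7* exceeded *Bmp5* in each of the 3 control pools and *Bmp5* exceeded *Bmp7* in each of the 3 mutant pools. The exons of these genes add up to nearly equal lengths, 4025 and 4019 bases. The log2 ratio of *Bmp5* to *Bmp7* was -0.13, -0.13 and -0.36 in control pools against 0.27, 0.05 and 0.19 in mutant pools. Size factors cancel out of this ratio. The difference of the means was 0.38 on the log2 scale (exact permutation test, two-sided, p = 0.1, the smallest that 3 pools against 3 allow). The pair was chosen after its values had been seen.

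**Figure D1:**
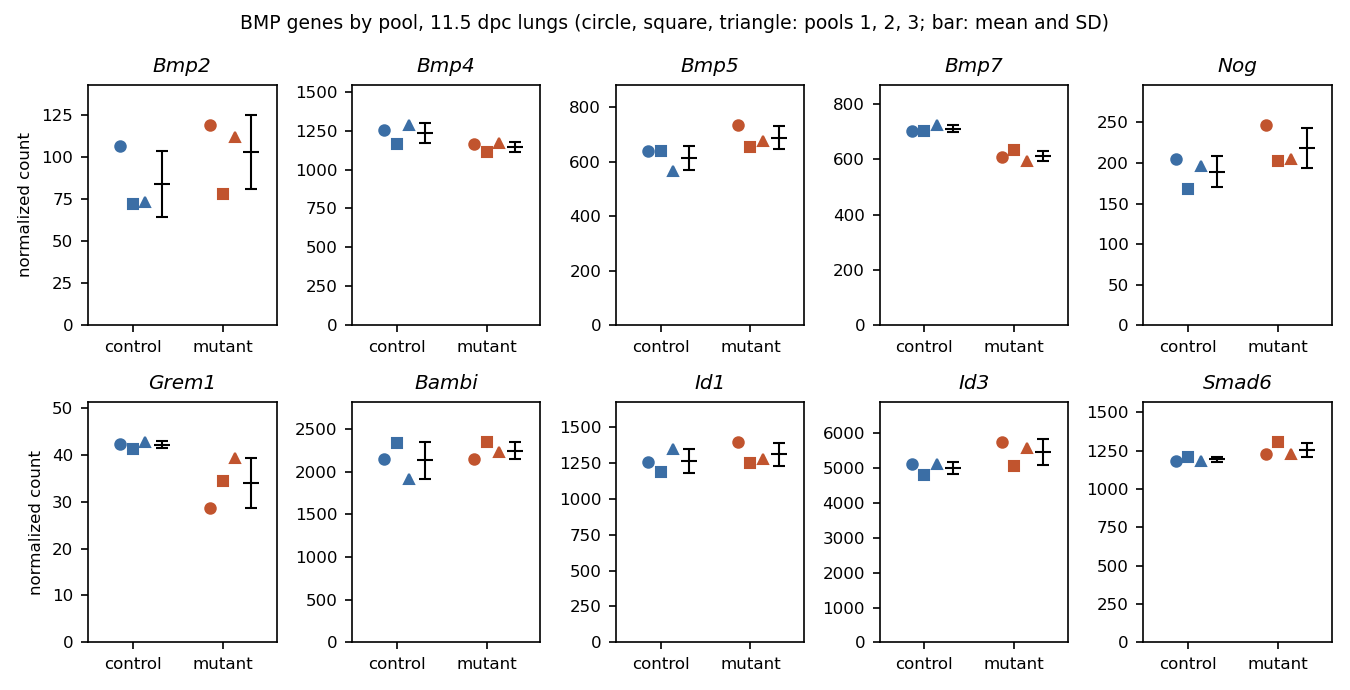
Normalized counts of the 10 BMP genes in each pool, with control pools in blue, mutant pools in orange, a symbol for each pool number, and the mean and SD (n = 3) as a bar; each vertical axis starts at 0. *Bmp7* and *Grem1* have every mutant pool below every control pool, *Bmp5* and *Smad6* have every mutant pool above, and the other 6 genes overlap.

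The antagonists did not pass the test either. *Nog*, which encodes noggin, is at chr11:89300638-89302332 (minus strand). It was at 204, 167 and 196 in control pools against 247, 203 and 205 in mutant pools. Mutant pool 1 stood above the other pools, and control pool 1 lay between the other mutant pools, so the groups overlapped. The log2 fold change was 0.21 (standard error 0.12, 95% interval -0.06 to 0.47, limma adjusted p = 0.482).

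*Grem1*, which encodes gremlin, is at chr2:113746164-113758646 (minus strand) and had the lowest counts of the 10 genes. It was at 42.2, 41.3 and 42.7 in control pools against 28.6, 34.3 and 39.3 in mutant pools. No mutant pool reached the lowest control pool, and the mutant pools were the more scattered. The means were 42.1 ± 0.718 (SD, n = 3) and 34.1 ± 5.33 (SD, n = 3). On the log2 scale the change was -0.31 (standard error 0.20, 95% interval -0.75 to 0.14, limma adjusted p = 0.536), so the interval is wide for this low gene. The variance is shared with other genes of similar level. By limma without the trend its p was 0.0462 (adjusted p = 0.422).

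*Bambi* encodes a membrane protein that resembles a BMP receptor but lacks the kinase domain, and is itself induced by BMP signaling. Its normalized count was 2152, 2340 and 1910 in control pools against 2149, 2349 and 2234 in mutant pools. The groups overlapped throughout, and control pool 3 was the lowest. The log2 fold change was 0.08 (standard error 0.07, 95% interval -0.08 to 0.23, limma adjusted p = 0.681). Its sign rested on control pool 3, without which the log2 fold change was -0.0010. *Bambi* has 1 pseudogene named in GENCODE M21, so its counts are uncertain to the extent that reads were shared with that copy.

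The response genes are a readout of the pathway inside the cell, measured here over all cells of the lung. On the deposited scale their intervals were narrow. Endothelial markers had higher means in mutant pools for 11 of 12 genes, and the part of endothelial cells in the response genes was not tested. *Id3* and *Id1* encode helix-loop-helix proteins that bind other transcription factors of this class and keep them off DNA, and both are direct SMAD targets. *Id3*, at chr4:136143497-136145755 (plus strand), was at 5098, 4805 and 5111 in control pools against 5744, 5048 and 5577 in mutant pools. Mutant pool 2 fell among the control pools and the other mutant pools were higher. The means were 5005 ± 173 (SD, n = 3) and 5457 ± 363 (SD, n = 3), a log2 fold change of 0.12 (standard error 0.05, 95% interval 0.0061 to 0.24, limma adjusted p = 0.340).

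*Id1*, at chr2:152736251-152737410 (plus strand), was at 1252, 1185 and 1346 in control pools against 1395, 1247 and 1279 in mutant pools. The groups were interleaved. The groups differed by 0.05 on the log2 scale (limma adjusted p = 0.764, standard error 0.06), and the 95% interval in percent was -5.94% to 14.2%.

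*Smad6*, at chr9:63953076-64022059 (minus strand), encodes an inhibitory SMAD that feeds back on BMP receptors. It was at 1183, 1212 and 1185 in control pools against 1229, 1308 and 1226 in mutant pools. The mutant pools were all above the control pools, by a small step. The means were 1193 ± 16.3 (SD, n = 3) and 1254 ± 46.4 (SD, n = 3), and differed by 0.07 on the log2 scale (limma adjusted p = 0.563, standard error 0.05). In percent the 95% interval was -2.54% to 13.3%. On the deposited scale all 3 response genes had a higher mean in mutant pools, and none of their intervals reached a level 20% higher. On a scale set by lung mesenchyme markers, described further on, the log2 fold changes of all 3 were negative (-0.14 for *Id1*, -0.07 for *Id3* and -0.12 for *Smad6*), and on a scale set by epithelial markers their intervals reached log2 fold changes of 0.61, 0.65 and 0.60.

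The start regions of the response genes *Id3* and *Smad6* are shown with the letters that SMAD proteins prefer. No promoter was found for *Id1*, and sequence farther from the start was not searched for any gene. Promoters from 250 bases before to 50 bases after the start were found by symbol for 5 of the 10 genes in RefSeq (GRCm38.p6), and those of *Id3* and *Smad6* are given 5′ to 3′ on the strand of the gene. The SMAD palindrome GTCTAGAC and the GC-rich element GGCGCC, bound by BMP-responsive SMADs, were searched. Each equals its own reverse complement, so a search of either strand is the same, and matches are in capitals. The *Id3* promoter is at chr4:136143572-136143871 on the plus strand and that of *Smad6* at chr9:64022010-64022309 on the minus strand. The *Id3* window lies wholly inside the gene span given above, because the RefSeq start is downstream of the GENCODE start. Bases before the GENCODE start of *Id3* were not searched.
Id3: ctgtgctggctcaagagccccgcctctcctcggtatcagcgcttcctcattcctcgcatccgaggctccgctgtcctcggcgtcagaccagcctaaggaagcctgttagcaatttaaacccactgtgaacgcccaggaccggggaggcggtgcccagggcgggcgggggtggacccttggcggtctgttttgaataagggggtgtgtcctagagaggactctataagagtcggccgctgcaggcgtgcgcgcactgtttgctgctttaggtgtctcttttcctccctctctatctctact
Smad6: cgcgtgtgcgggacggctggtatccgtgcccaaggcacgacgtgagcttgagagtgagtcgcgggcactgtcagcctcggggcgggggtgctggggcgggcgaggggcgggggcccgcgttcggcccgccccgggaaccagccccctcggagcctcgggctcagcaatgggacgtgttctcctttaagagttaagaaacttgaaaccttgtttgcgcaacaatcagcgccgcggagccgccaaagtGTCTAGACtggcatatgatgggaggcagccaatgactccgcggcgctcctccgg
The *Smad6* promoter holds GTCTAGAC once, beginning 4 bases before the annotated start, and 0.213% of all 32851 promoters in the table hold it. The *Id3* promoter holds neither element in this window. The element GGCGCC is present in 11.9% of all promoters and, of the 5 genes matched, in that of *Grem1*. A match of letters is a description and does not show that a factor binds there.

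Levels can be compared between genes once they are divided by length. Per kb of annotated exon, the normalized counts of control pools placed *Id3* first at 2794 ± 96.6 (SD, n = 3), followed by *Id1* at 1087 ± 69.6 and *Bmp4* at 550 ± 28.6. *Bambi* (421 ± 42.4) and *Smad6* (372 ± 5.08) came next, and the ranges of this pair overlapped in control pools. *Bmp7* was at 177 ± 3.28, *Bmp5* at 140 to 159 and *Nog* at 112 ± 11.4 per kb in control pools. *Bmp2* (23.7 ± 5.55) and *Grem1* (10.1 ± 0.173) were the lowest. In control pools all other neighbours in this order had ranges that did not overlap. In mutant pools the order was the same except that *Bmp5* (171 ± 10.6 per kb) stood above *Bmp7* (152 ± 4.82 per kb).

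**Figure D2:**
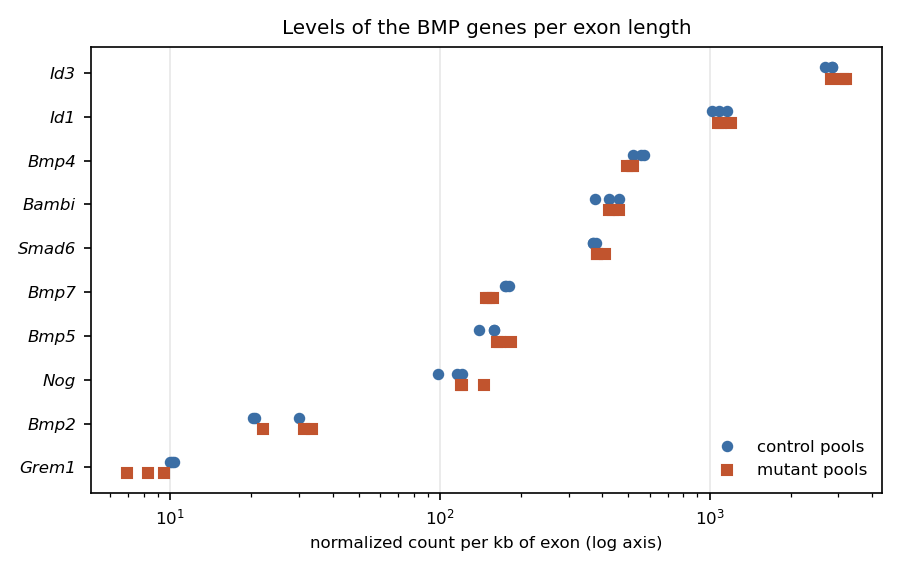
Normalized count per kb of exon for the 10 BMP genes on a log axis, with control pools as blue circles and mutant pools as orange squares. Levels run in control pools from a mean of 10.1 for *Grem1* to 2794 for *Id3*, and the differences between groups are small beside this range. *Bmp5* and *Bmp7* lie close together and change order between the groups.

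Among the 13 BMP-type ligands listed, *Bmp4* made up 52.5% ± 1.41 (SD, n = 3) of the summed level per kb in controls and 49.0% ± 0.696 (SD, n = 3) in mutant pools. The ranges did not overlap, at 51.3% to 54.1% and 48.2% to 49.4%. *Bmp7* had a share of 16.9% ± 0.447 in control and 14.6% ± 0.940 in mutant pools, and *Bmp5* of 14.6% ± 1.28 and 16.4% ± 0.585. Shares of a sum are tied to each other, so these values are a description. *Bmp2* contributed 2.26% and 2.78%. *Gdf5* had a share of 2.23% ± 0.255 in control and 4.52% ± 1.54 in mutant pools, with ranges of 1.94% to 2.42% and 2.79% to 5.71% that did not overlap.

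The rest of the pathway was described with 56 further genes listed by role, of which 55 could be tested. *Bmp10*, a ligand of the heart, was too low to test, with 0 to 3.98 normalized counts. By limma, 0 of the 55 had an adjusted p under 0.05, where the background was 0.501%. At an unadjusted p under 0.05 there were 8 of the 55, 7 higher and 1 lower, against 13.6% of tested genes. The groups did not overlap for 12 of the 55, against 20.2%. The median log2 fold change was 0.04. By edgeR 0 of these genes were called (0.539% of all genes it tested). By DESeq2 there were 2, *Gdf5* and *Sostdc1* (1.45% of all genes it tested).

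Of the 8 other ligands tested, *Gdf5*, a joint-forming ligand of the BMP family, was at 59.9, 54.8 and 47.7 in control pools against 142, 64.7 and 124 in mutant pools. Mutant pools 1 and 3 were far above every control pool and mutant pool 2 was near them. Its log2 fold change was 0.94 (limma adjusted p = 0.158). By DESeq2 the adjusted p was 0.0268, and by limma without mutant pool 2 it was 0.0485. *Bmp3*, a ligand known to oppose BMP signaling, was at 112, 105 and 99.4 in control pools against 138, 121 and 155 in mutant pools, without overlap (log2 fold change 0.38, limma adjusted p = 0.246).

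Of 10 receptors and co-receptors, 1 had an unadjusted p under 0.05 by limma, against 13.6% of all tested genes. It was *Acvrl1*, a receptor of endothelial cells, at 779, 846 and 729 in control and 955, 899 and 909 in mutant pools (log2 fold change 0.23, limma adjusted p = 0.158). The main BMP receptor of the lung, *Bmpr1a*, was at 4716, 4530 and 5010 in control and 4969, 4655 and 4849 in mutant pools. These groups were interleaved. Of 10 transducers and inhibitors, including *Smad1*, *Smad5*, *Smad9*, *Smad4* and *Smad7*, 0 had an unadjusted p under 0.05, against the same 13.6%. With 10 genes these counts are too small to set a role apart from that share. The median size of the log2 fold change was 0.03, beside 0.10 over all tested genes.

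Of 17 other antagonists and modulators, 3 had a higher and 1 a lower mean at an unadjusted p under 0.05, against 6.67% and 6.89% of all tested genes. *Sostdc1*, a secreted antagonist of BMP and WNT ligands, was at 43.2, 21.7 and 83.5 in control pools against 17.4, 14.7 and 15.7 in mutant pools. All mutant pools were below all control pools, but the control pools themselves differed several-fold. They stood in the same order as for *Xist*, and the part of embryo sex in this difference was not tested. The log2 fold change was -1.38 (limma adjusted p = 0.176). It passed by DESeq2 (adjusted p = 0.0300) and by limma without control pool 2 (adjusted p = 0.0347). Apart from the scalings to markers, no other alternative called *Gdf5* or *Sostdc1*. *Fstl1*, a secreted BMP-binding glycoprotein of the mesenchyme, was at 11732 to 11980 in control and 12372 to 13165 in mutant pools (log2 fold change 0.11, limma adjusted p = 0.227). *Bmper* (log2 fold change 0.16) and *Bmp1* (0.11), a protease that cleaves the antagonist chordin, were the others, each without overlap of the groups.

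Of 10 other response genes, 5 had a higher and 5 a lower mean in mutant pools. *Id4* was at 295, 254 and 262 in control and at 310, 297 and 329 in mutant pools (log2 fold change 0.21, limma adjusted p = 0.351). *Id2*, the closest in role to *Id1* and *Id3*, was at 3123, 2909 and 3404 in control and 3253, 3002 and 3217 in mutant pools. It did not separate the groups. *Msx1* and *Msx2*, homeobox targets of BMP signaling, had lower means in mutant pools with log2 fold changes of -0.35 and -0.22 and with overlap of the groups.

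**Figure D3:**
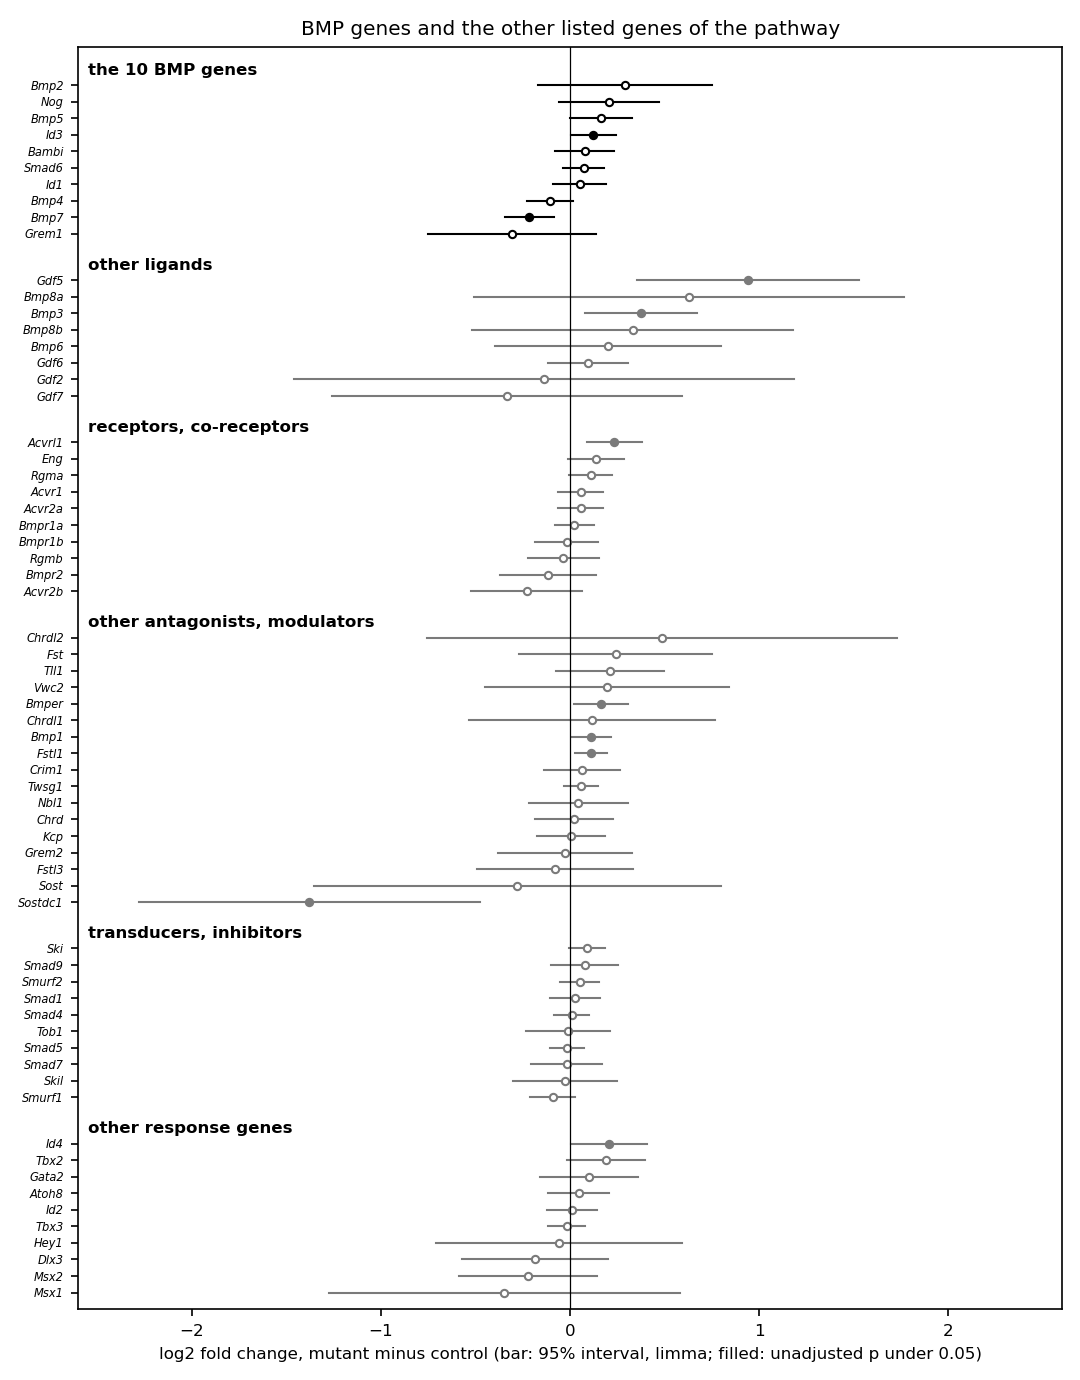
Log2 fold change of mutant minus control with its 95% interval (limma, n = 3 pools in each group) for the 10 BMP genes in black and the 55 other tested genes of the pathway in grey, by role; filled symbols have an unadjusted p under 0.05. The 10 BMP genes lie between -0.31 (*Grem1*) and 0.29 (*Bmp2*), and *Gdf5* and *Sostdc1* have the changes farthest from 0 among the filled symbols.

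Cell type markers moved with the groups. Of 20 epithelial markers 17 had a lower mean (here of log2 values) in mutant pools. By limma 6 of them passed an adjusted p of 0.05, against 0.501% of all tested genes. The list was uneven, with log2 fold changes from -0.97 (*Cdh1*) to 0.44 (*Krt19*, without overlap of the groups). Those of *Shh* (-0.03), *Sox9* (0.12) and *Sftpc* (0.04) came with overlap of the groups. The summed normalized count of the list was 23250 to 28669 in control pools against 20005 to 21120 in mutant pools. Of 16 lung mesenchyme markers 15 had a higher mean, 3 of them past that threshold, with sums of 126570 to 131477 and 150145 to 154902. These 3 were the collagen genes *Col1a1*, *Col1a2* and *Col3a1*, the most abundant of the list, so they weigh most in the sums. The groups did not overlap in 7 of the 16, against 20.2% of all tested genes. They overlapped for *Tbx4* and *Foxf1*. Endothelial markers had higher means in 11 of 12 genes (sums 14735 to 16910 and 17333 to 17873), smooth muscle markers in 6 of 7 (7753 to 9452 and 10086 to 11066) and mesothelial markers in 5 of 6 (3724 to 4335 and 4422 to 4889). Cardiac muscle markers had lower means in 7 of 8 (1022 to 1158 and 741 to 858). Neural (2217 to 2403 and 1832 to 2398), macrophage (1893 to 2837 and 2542 to 2651) and erythroid (96131 to 124035 and 95354 to 118693) sums overlapped between groups, and the adult globin genes *Hba-a1* and *Hba-a2* are listed at 0. The part of these markers in the values of the BMP genes was not tested. The scalings and ratios that follow cannot decide it.

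The values of the BMP genes were also set against those of the compartments. The epithelial list was uneven, and both lists were chosen with earlier results of these data known. These scales therefore cannot show whether a BMP gene followed its compartment, and the values are a description. Scaling every library to the epithelial markers moved the median log2 fold change of all tested genes to 0.32, and scaling to the mesenchyme markers moved it to -0.19. The epithelial ligand *Bmp7* had a log2 fold change of 0.11 on the epithelial scale (95% interval -0.12 to 0.34, limma adjusted p = 0.407) and of -0.40 on the mesenchymal scale. The mesenchymal ligand *Bmp5* had a log2 fold change of -0.03 on the mesenchymal scale (95% interval -0.20 to 0.15, limma adjusted p = 0.826) and of 0.49 on the epithelial scale. *Bmp4* was at 0.22 on the epithelial and -0.30 on the mesenchymal scale. Relative to the median of all tested genes, which no scaling alters, *Bmp4* was at -0.11, *Bmp5* at 0.17 and *Bmp7* at -0.21.

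**Figure D4:**
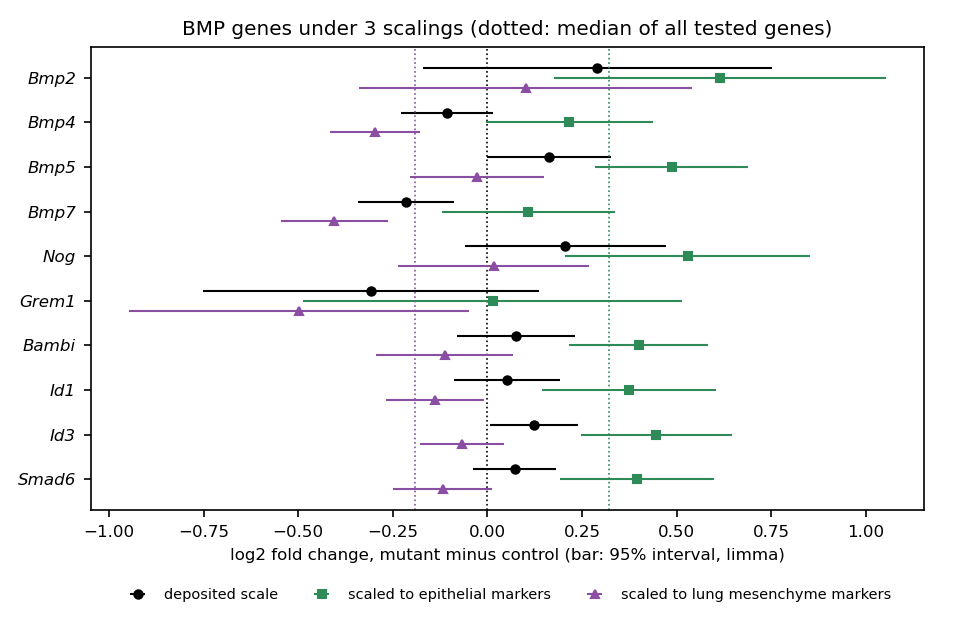
Log2 fold change of mutant minus control with its 95% interval (limma, n = 3 pools in each group) for the 10 BMP genes on the deposited scale (black circles), scaled to epithelial markers (green squares) and scaled to lung mesenchyme markers (purple triangles); dotted lines give the median of all tested genes on each scale. The whole pattern shifts up by 0.32 or down by 0.19, and the sign of 8 of the 10 genes depends on the scale.

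Within each pool, 10 ratios of gene pairs were formed, which do not depend on size factors, and were compared with two-sided exact permutation tests whose smallest p is 0.1. The ratio of *Bmp4* to *Nog* was 2.62, 2.80 and 2.72 in control pools against 2.23, 2.45 and 2.51 in mutant pools, in log2 units. All mutant pools were lower, and the difference of the means was -0.31 (exact p = 0.1, adjusted p = 0.5 over the 10 ratios). None of the other 9 ratios separated the groups. The ratio of *Bmp7* to the epithelial marker *Epcam* was -1.39 ± 0.27 (SD, n = 3) in control and -1.33 ± 0.15 (SD, n = 3) in mutant pools, and that of *Bmp5* to the mesenchymal marker *Tbx4* was -2.58 ± 0.20 and -2.53 ± 0.12. Both differences were well within the spread between pools. The control SDs, 0.27 and 0.20, exceeded the sizes of the log2 fold changes of *Bmp7* (-0.22) and *Bmp5* (0.16). These ratios therefore cannot show whether either gene followed its marker. The ratio of *Id1* to *Id3* was -1.99 ± 0.06 and -2.06 ± 0.06, and that of *Bambi* to *Smad6* was 0.83 ± 0.13 and 0.84 ± 0.03.

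Across the 6 libraries, mutant pool 1 had the highest value for 5 of the 10 genes and control pool 2 the lowest for 4. For each of the 10, the gene with the most similar pattern of log2 values was sought among 11450 genes with a mean of at least 100. *Bambi* was closest to *Etv4*, a transcription factor of the distal lung tip (Pearson r = 0.996), and 129 genes exceeded 0.95 with it. *Bmp7* was closest to *Hnrnpm* (r = 0.990), *Bmp5* to *Pard6g* (r = 0.995) and *Bmp2* to *Gpx1* (r = 0.984). *Nog* was closest to *Txndc16* (r = 0.986), *Grem1* to *Ccdc101* (r = 0.993), *Id1* to *Tpm1* (r = 0.990), *Id3* to *Adcy4* (r = 0.995) and *Smad6* to *Ccdc8* (r = 0.989). With 6 libraries and so many genes, values this high are found for every gene examined here, so they describe these pools only.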

How the data were processed

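RNA-Seq of whole lungs at E11.5dpc was analysed for 3 control and 3 mutant pools, grouped by the titles in the labels. The authors deposited 1 table of normalized counts (a signal value per gene: its reads after division by the size factor of the library). Per the labels, the submitters' processing notes name Trim Galore, HISAT2, featureCounts, DESeq2 and mm10. Columns with the authors' own fold changes and p-values were not used. All values of the 6 libraries were whole multiples (within 0.05) of a step near 1, which gave the reads. The 27 symbols turned into dates were left as they are.

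Groups were compared with limma 3.58.1 under R 4.3.3 (lmFit, eBayes with trend) on log2(normalized count + 1), which understates the change of low genes, for genes reaching 1 in 3 or more libraries. P-values were adjusted by Benjamini-Hochberg over all tested genes, with a threshold of 0.05. Tested on simulated counts, limma, edgeR and DESeq2 gave a share of false calls above the nominal threshold. Recovery of differences as small as those of the BMP genes was not tested. edgeR 4.0.16 (quasi-likelihood, TMM, filterByExpr) and DESeq2 1.42.0 were run on the recovered reads as alternatives. Other alternatives were limma without trend, upper-quartile normalization (75th percentile), a stricter filter (10 in every library) or none, 0.1 as pseudocount, the replicate number as a block, each pool left out in turn, scaling to marker lists and *Xist* as a covariate. Ratios were tested with scipy 1.17.1. Positions and exon lengths are from GENCODE M21 (GRCm38, the same build as mm10).

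The genes and lists were chosen with earlier results of these data known. Beyond the 10 BMP genes, the text names *Rptor*, fixed markers, pathway genes with an adjusted p under 0.05 or up to 3 in each role with the lowest unadjusted p under 0.05, and for each BMP gene the most similar gene, which for *Bmp4* is not reported here. *Bmp1*, *Bmpr1a*, *Bmp10*, *Id2*, *Msx1*, *Msx2*, *Gm15217*, *Gm26903*, the SMAD genes, *Cdh1*, *Krt19*, *Shh*, *Sox9*, *Sftpc*, *Col1a1*, *Col1a2*, *Col3a1*, *Hba-a1*, *Hba-a2* and *Xist* were named beyond this rule.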

Additional observations from a re-analysis of the deposited data

How the results depend on the processing

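Of 170 values of the 10 BMP genes under 17 alternatives, 151 kept their direction and stayed without an adjusted p under 0.05, 9 passed it and 10 changed sign. On the epithelial scale, which called 8593 of 17168 genes, 7 of the 10 BMP genes and 32 of the 55 listed pathway genes, the log2 fold changes that passed were 0.61 (*Bmp2*), 0.49 (*Bmp5*), 0.53 (*Nog*), 0.40 (*Bambi*), 0.38 (*Id1*), 0.45 (*Id3*) and 0.40 (*Smad6*), and those that changed sign were 0.22 (*Bmp4*), 0.11 (*Bmp7*) and 0.014 (*Grem1*). On the mesenchymal scale, which called 5426 genes, 2 of the 10 and 13 of the 55, *Bmp4* (-0.30) and *Bmp7* (-0.40) passed, and *Bmp5* (-0.027), *Bambi* (-0.11), *Id1* (-0.14), *Id3* (-0.067) and *Smad6* (-0.12) changed sign. These scalings move all genes by the same amount, 0.32 and -0.19 at the median. With *Xist* as a covariate *Bambi* changed sign (-0.030), and *Bmp4* (-0.05), *Grem1* (-0.19), *Bmp2* (0.19), *Id1* (0.09) and *Bmp5* (0.02) moved by over 1.5 times.

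The number of all genes called, 86, was 8 without the trend, 18 without a filter and 277 by DESeq2, which also called 2 listed pathway genes. The cause was not tested. Leaving out 1 pool at a time gave 1 to 468 genes, 0 of the 10 BMP genes and 0 to 1 of the listed pathway genes. The log2 fold change then ran from -0.0010 to 0.15 for *Bambi*, 0.17 to 0.48 for *Bmp2*, 0.11 to 0.26 for *Nog*, -0.41 to -0.19 for *Grem1*, 0.0041 to 0.10 for *Id1*, 0.04 to 0.09 for *Smad6*, 0.10 to 0.20 for *Bmp5*, 0.08 to 0.18 for *Id3* and -0.15 to -0.08 for *Bmp4*. The lowest counts, 1 gene each, came without control pool 1 or mutant pool 3, and the highest without control pool 3. A block for the replicate number gave 71 genes and 0 of the 10. Whether same-numbered pools share a litter was not tested. Their deviations from the group means correlated at -0.0040, 0.19 and 0.04, and not every pool correlated best with its own number. Deviations of 3 pools sum to 0 within a group, which ties these correlations to each other, so they cannot decide the question. The standard errors of the log2 fold change limit *Grem1* (0.20) and *Bmp2* (0.21), the genes with the fewest counts, more than the other 8 genes (0.05 to 0.12).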
